A study of Equus asinus with 3 samples.

Results

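The 4 claudins CLDN2, CLDN5, CLDN8 and CLDN11 were followed through single-cell RNA libraries of the donkey (Equus asinus) epididymis and testis. They were chosen by symbol, and all 4 were present among the 34267 features found in at least 1 of the 3 libraries, which also held 18 other claudins. There was 1 library of the corpus (body of the epididymis), 1 of the caput (head of the epididymis) and 1 of the testis. The tissue came from 3 sexually mature males, for which the sources used here name no age, treatment or allele, and do not say which animal gave which library. The labels give the cells as somatic for both epididymal libraries and as germ cells for testis, and describe no sort. With 1 library per group there was no replicate check. Every interval below is an exact 95% interval that covers counting error only, and any difference between tissues cannot be told apart from one between animals or preparations.

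Claudins are membrane proteins with 4 passes through the membrane that line up in strands at the tight junction and set which ions and molecules may pass between neighbouring cells. CLDN2 forms a channel for small cations and water in leaky epithelia, whereas CLDN8 is a barrier claudin of tight epithelia such as the distal nephron. CLDN5 is the main claudin of endothelium, best known from the blood-brain barrier, and CLDN11 is needed for the Sertoli cell barrier of the mouse testis and for central myelin. In the epididymis, tight junctions between the luminal cells of the duct keep maturing sperm apart from the blood, and several claudins have been found in that epithelium in rodents and man.

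Levels are given in CPM, the UMIs of a gene per 1000000 UMIs of a cell class, where a UMI (unique molecular identifier) stands for 1 captured transcript. The libraries differed widely in depth, with 4142512 UMIs in corpus, 13203203 in caput and 47686179 in testis, and with medians of 371, 1145 and 4705 UMIs per kept cell. Cells were grouped in each library without using any claudin or other junction gene, and a class was named from markers that hold no claudin. Luminal epithelial-like cells were 164 of 9607 cells in corpus and 2688 of 9477 in caput, and none were found among 8585 testis cells. The leading naming gene was CD52 in corpus luminal cells, at 15091 CPM, and DEFB119, a beta-defensin, in caput luminal cells, at 14312 CPM. Endothelial-like cells were scarce, at 82 in corpus, 11 in caput and 4 in testis, and were led by MMRN1, LYVE1, ECSCR and VWF. Fibroblast-like cells numbered 2642 in corpus, 722 in caput and 55 in testis. Clear or narrow-like cells, which acidify the duct, were 96 cells of the caput, where 11 of their 15 markers were raised against the other caput clusters. A class of long-gene cells (5241 in corpus, 4405 in caput and 585 in testis) was named for a list of very long genes. These were raised against the other clusters of the same library, and no cell type was named in the class. They held 1.65% of its UMIs in corpus, 1.65% in caput and 0.182% in testis.

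**Figure D1:**
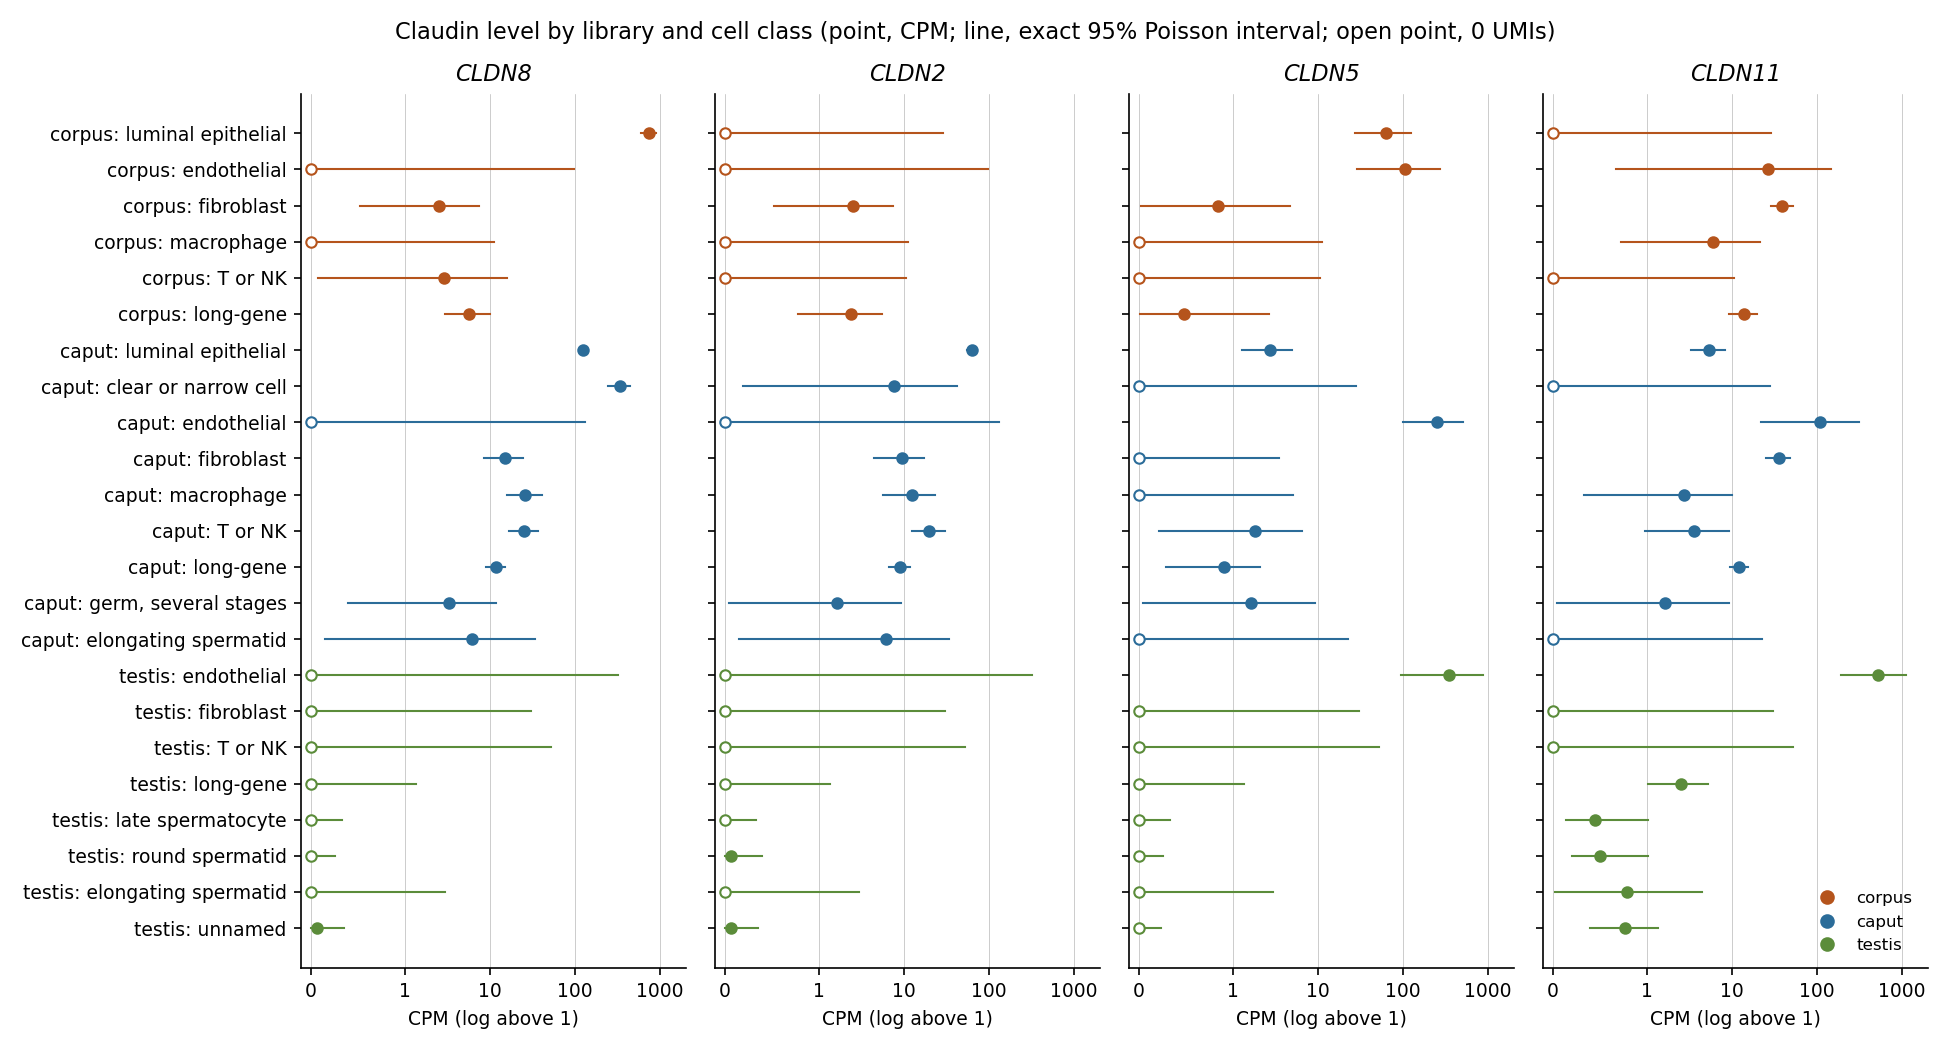
Level of each claudin in every cell class, in CPM on an axis that is linear below 1 and logarithmic above it, with corpus classes on top, then caput, then testis. Points are levels, lines exact 95% Poisson intervals and open points 0 UMIs. CLDN8 is highest in corpus luminal cells (744 CPM), CLDN2 in caput luminal cells (62.9 CPM), and the highest values of CLDN5 and CLDN11 lie in the 4 endothelial-like cells of the testis.

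CLDN8 was found mainly in the duct lining, and its level was higher in corpus than in caput luminal cells. Corpus luminal cells held 95 CLDN8 UMIs, a level of 744 CPM (602 to 909), against 456 UMIs and 123 CPM (112 to 134) in caput luminal cells. The ratio of corpus over caput was 6.07 (4.81 to 7.58), and its whole interval lay beyond 2-fold. Without the 5% of barcodes with the highest doublet scores, 59 of the corpus class's cells were left in place of 164. They held 46 CLDN8 UMIs, and the ratio was 5.93 (4.28 to 8.05). The part of doublets in the corpus luminal class was not tested. At least 1 CLDN8 UMI was seen in 34.1% of corpus luminal cells and in 12.3% of caput luminal cells, although the corpus cells were the shallower ones, with a median of 634 UMIs against 1150. After each cell was thinned to 300 UMIs, which left out 2 corpus cells, the shares were 18.5% and 2.94%. The 164 corpus luminal cells made up 1.71% of their library and held 85.6% of its CLDN8 UMIs; the caput luminal cells made up 28.4% of theirs and held 71.9%.

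A further place of CLDN8 was the clear or narrow-like cells of the caput. These 96 cells held 44 UMIs, a level of 334 CPM (243 to 448), and 32.3% of them had a CLDN8 UMI. After thinning to 300 UMIs per cell the share was 4.17%, beside 2.94% of caput luminal and 18.5% of corpus luminal cells. This share comes from a single random draw on 96 cells and has no interval. The level of 334 CPM lay between those of the corpus and the caput luminal cells, at 2.72 times the caput luminal level (1.95 to 3.72), and the corpus luminal level was 2.23 times as high (1.54 to 3.26). The caput luminal level is a mean over clusters that differed, as described below. In the luminal cluster led by DEFB129 CLDN8 stood at 297 CPM (257 to 341), with a UMI in 28.5% of cells. Its interval overlaps that of the clear or narrow-like cells. No class of clear or narrow-like cells was found in corpus. Corpus luminal cells carried 8 of the 15 clear or narrow cell markers with a summed level of 775 CPM, against 14 markers and 288 CPM in caput luminal cells and 5191 CPM in the caput clear or narrow-like cells. The 8 markers detected in corpus luminal cells, with 99 UMIs in all, were ATP6V0D2, ATP6V1C2, ATP6V1G3, ATP6V0A4, CA12, SLC4A9, CFTR and INSRR. The 7 markers at 0 in these cells were ATP6V1B1, FOXI1, CA2, SLC26A4, ASCL3, DMRT2 and KIT, and FOXI1 was at 0 in the whole corpus library. At the depth of this class, the exact interval of a gene with 0 UMIs reaches 28.9 CPM. The part of such cells in the corpus level was not tested.

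CLDN8 was also seen outside the epithelium of the caput, at a lower level. It stood at 25.1 CPM in T or NK-like cells, 26.0 CPM in macrophage-like cells and 14.9 CPM in fibroblast-like cells of the caput, which is 20.5%, 21.2% and 12.2% of its luminal level. The luminal naming genes, which include secreted products of the duct, had median levels of 19.6%, 22.0% and 17.5% of their luminal level in the same classes. Only naming genes with at least 50 UMIs in luminal cells were used, 23 in caput and 11 in corpus. CD52 was the highest in caput T or NK-like cells (149%) and macrophage-like cells (144%). The next were CRISP1 at 37.4% and KRT19 at 44.3%. In corpus the naming genes had medians of 0.70% in T or NK-like cells, 0.83% in macrophage-like cells and 0.71% in fibroblast-like cells, and CLDN8 stood at 0.38%, 0% and 0.34%. The caput macrophage-like clusters differed, with 15 CLDN8 UMIs and 60.3 CPM (33.7 to 99.4) in the smaller, of 189 cells, and 4 UMIs and 8.30 CPM (2.26 to 21.3) in the larger, of 278 cells. A CLDN8 UMI was seen in 2.61% of caput T or NK-like cells, at a median of 1192 UMIs, against 12.3% of caput luminal cells at a median of 1150. The part of RNA free in the suspension in these levels was not tested.

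**Figure D2:**
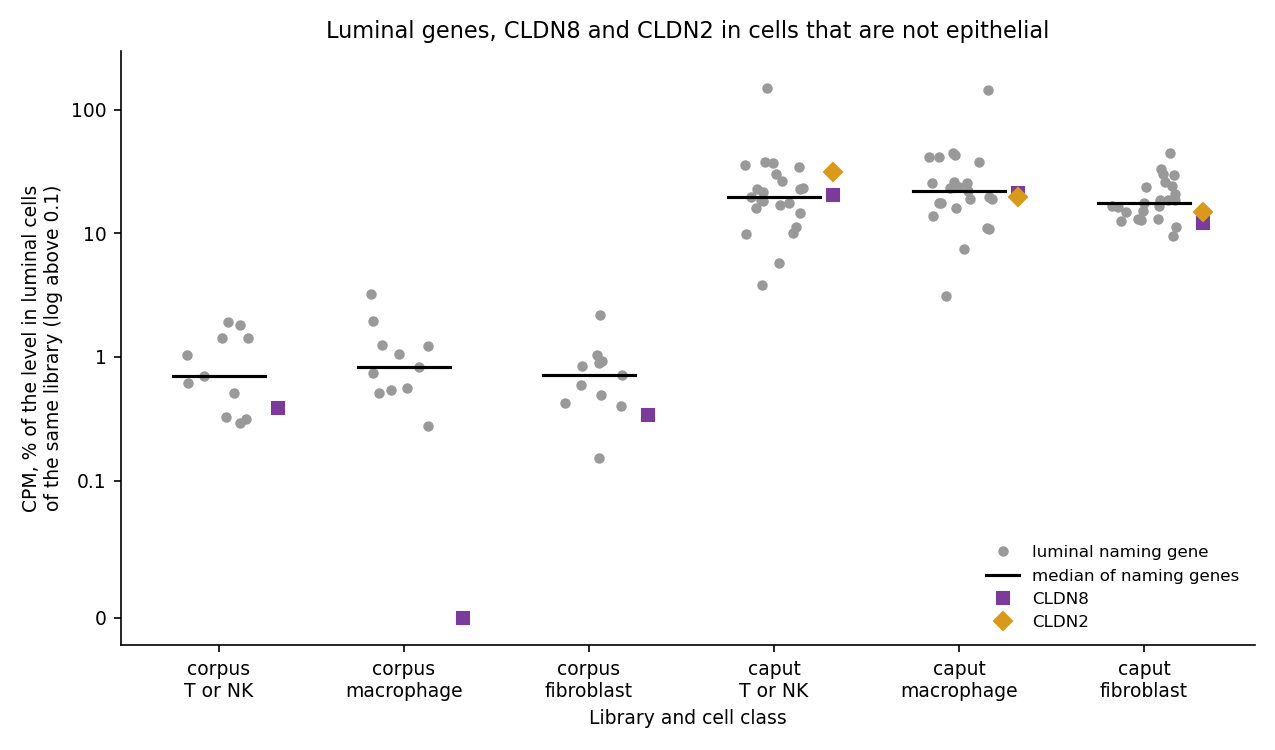
Level in immune cells and fibroblasts as a percentage of the level in luminal cells of the same library, on an axis that is linear below 0.1 and logarithmic above it, with corpus classes left of caput classes. Grey points are luminal naming genes with at least 50 UMIs in luminal cells, black bars their medians, squares CLDN8 and diamonds CLDN2. CLDN8 and CLDN2 fall within the range of the naming genes in each caput class, and CLDN2 had no luminal level to refer to in corpus.

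CLDN2 was found mainly in the caput duct lining, whose luminal cells held 71.1% of the CLDN2 UMIs of the caput library. Corpus luminal cells had 0 CLDN2 UMIs among 127762, with an exact interval up to 28.9 CPM. Caput luminal cells had 234 UMIs and 62.9 CPM (55.1 to 71.5). The level was thus at least 2.68-fold lower in corpus luminal cells. This bound depends on the size of the corpus class, 164 cells in the main grouping. With at least 500 genes required per cell, 73 cells and 85857 UMIs were left in it, and the bound was 1.73. Without the 5% of barcodes with the highest doublet scores, 59 cells and 62897 UMIs were left, and the bound was 1.31. Both bounds were under 2-fold. A CLDN2 UMI was seen in 7.11% of caput luminal cells, with up to 8 in a cell. In the 96 clear or narrow-like cells, where CLDN8 was high, CLDN2 had 1 UMI (7.59 CPM). In caput T or NK-like cells it stood at 19.7 CPM, in macrophage-like cells at 12.3 CPM and in fibroblast-like cells at 9.33 CPM, 31.4%, 19.6% and 14.8% of the luminal level and so within the range of the naming genes. The corpus library held 8 CLDN2 UMIs in all, 5 of them in long-gene cells and 3 in fibroblast-like cells, and the testis library held 2.

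Across all genes, the same comparison of luminal cells called 1.1% of 6560 genes higher in corpus and 1.8% higher in caput. A call needs at least 50 UMIs on the higher side and an interval wholly beyond 2-fold. These shares depend on depth, since most of the 6560 genes reached 50 UMIs on the deeper caput side alone. With the caput UMIs thinned to the corpus total, 338 genes were tested, and 16.6% were called higher in corpus and 13.9% higher in caput. CLDN8, the 1 of the 4 claudins still tested, was again called higher in corpus. Of the 4 claudins, 2 reached 50 UMIs on the higher side, and 1 was called in each direction, CLDN8 higher in corpus and CLDN2 higher in caput. CLDN11 had 0 UMIs in corpus luminal cells and 20 (5.38 CPM) in caput luminal cells, and no fold can be given at that depth.

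Within the caput, both epithelial claudins varied over 5 luminal clusters that were defined without them. The clusters are named by their leading genes. In the DEFB129-led cluster (442 cells, with DEFB135, DEFB116 and ECRG4) CLDN8 stood at 297 CPM and CLDN2 at 39.0 CPM. In the DEFB119- and EDDM13-led cluster, the largest with 1597 cells, CLDN8 stood at 103 CPM and CLDN2 at 46.0 CPM. In the DEFB113-led cluster (239 cells, with LCN6 and RNASE10) CLDN8 stood at 75.9 CPM and CLDN2 at 103 CPM. In the CST11-led cluster (345 cells, with PTGDS and LCN8) CLDN8 stood at 34.6 CPM and CLDN2 at 117 CPM. In the smallest, an LCN8- and DEFB114-led cluster of 65 cells, CLDN8 stood at 18.5 CPM from 2 UMIs and CLDN2 at 139 CPM from 15 UMIs. The order of the clusters by CLDN8 was the reverse of that by CLDN2.

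Neighbours in these orders were not all distinct. For CLDN8, the DEFB129-led cluster was 2.89 times as high as the DEFB119-led one (2.37 to 3.53) and the DEFB113-led cluster 2.19 times as high as the CST11-led one (1.16 to 4.21), whereas the intervals of the remaining steps included 1. For CLDN2, the LCN8-, CST11- and DEFB113-led clusters did not differ beyond counting error (ratios of 1.19 and 1.13 between neighbours), the DEFB113-led cluster was 2.25 times as high as the DEFB119-led one (1.47 to 3.36), and the DEFB119- and DEFB129-led clusters were close (1.18, 0.757 to 1.90). These intervals were not adjusted for the 10 pairs of clusters per gene.

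The share of CLDN2 among the UMIs of both claudins put the clusters on 1 scale, which is compared between clusters and not read as the more abundant gene. It was 0% in corpus luminal cells (0 to 3.81%), 11.6% in the DEFB129-led caput cluster (7.72 to 16.5%), 30.9% in the DEFB119-led, 57.6% in the DEFB113-led, 77.1% in the CST11-led (66.6 to 85.6%) and 88.2% in the LCN8-led cluster (63.6 to 98.5%). In the clear or narrow-like cells it was 2.22% (0.0562 to 11.8%). Caput T or NK-like cells had 44.0%, against 33.9% over all caput luminal cells. In caput luminal cells 191 held CLDN2, 330 held CLDN8 and 39 held both, where 23.4 would be shared if the genes were independent over the class; deeper cells are more likely to show any gene, so this is not read as joint expression.

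**Figure D3:**
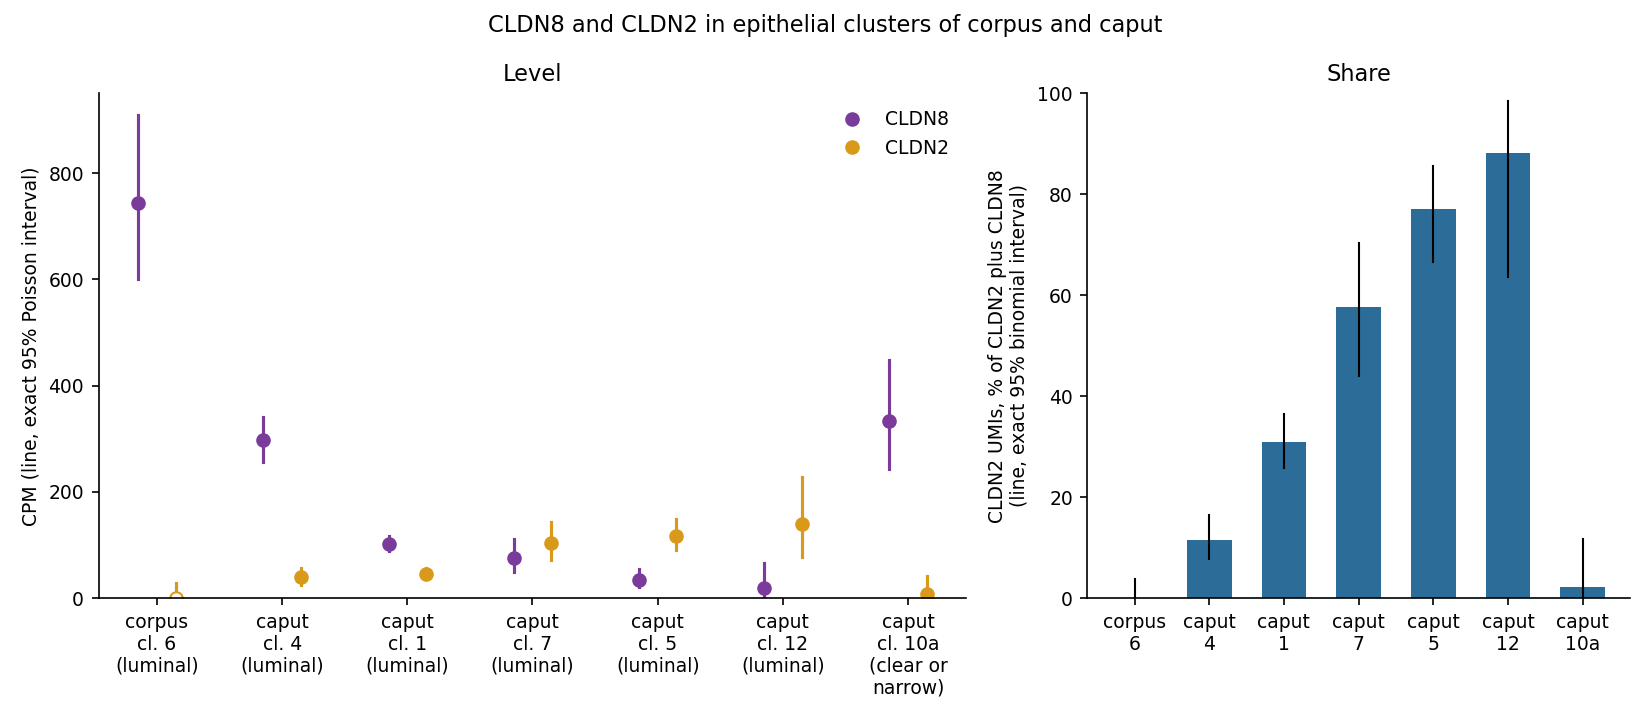
Left, CLDN8 and CLDN2 in CPM with exact 95% Poisson intervals in the corpus luminal cluster, the 5 caput luminal clusters in order of CLDN8 and the caput clear or narrow-like cells. Right, CLDN2 as a percentage of CLDN2 plus CLDN8 UMIs with exact 95% binomial intervals. From left to right over the luminal clusters CLDN8 goes down and the CLDN2 share goes up to 88.2%.

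The corpus luminal cells lay at the CLDN8 end of this range. Their CLDN8 level was 2.51 times that of the DEFB129-led caput cluster (1.94 to 3.22), 7.25 times that of the DEFB119-led, 9.79 times that of the DEFB113-led, 21.5 times that of the CST11-led and 40.2 times that of the LCN8-led cluster (10.8 to 337). Among the 10 leading genes of corpus luminal cells, 2 were shared with the DEFB129-led cluster, 2 with the DEFB119-led cluster and 0 with each of the others. Over all genes at 50 CPM or more in either, with junction genes left out, the Pearson correlation of log levels with corpus luminal cells was 0.60 for the DEFB129-led cluster (4566 genes), 0.51 for the DEFB119-led, 0.46 for the DEFB113-led, 0.43 for the CST11-led and 0.33 for the LCN8-led cluster. These correlations are across genes, which are not replicates, and the LCN8-led cluster also had the fewest UMIs (108162).

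CLDN5 had few UMIs in any library and was found in endothelial-like cells of all 3. It had 4 UMIs in 82 corpus cells (106 CPM, 28.8 to 271), 7 UMIs in 11 caput cells (249 CPM, 100 to 514) and 4 UMIs in 4 testis cells (344 CPM, 93.7 to 880). All 4 CLDN5 UMIs of the testis library lay in those 4 cells, 2 of which held them, with up to 3 in 1 cell. In 4 of the other groupings these cells joined the fibroblast-like cells, and testis had no endothelial class. Neighbours in the order of these 3 levels did not differ beyond counting error, and the ratio of corpus over caput was 0.424 (0.0910 to 1.67). The 21 endothelial marker features summed to 7059 CPM in the corpus, 7734 CPM in the caput and 7735 CPM in the testis class. In corpus 2 of the markers, MMRN2 and CLEC14A, were at 0, in caput none was, and in testis 8 were, including FLT1 and TEK.

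CLDN5 was also found in corpus luminal cells. They held 8 UMIs in 8 cells, a level of 62.6 CPM (27.0 to 123), against 10 UMIs in 8 cells and 2.69 CPM (1.29 to 4.94) in caput luminal cells. The ratio of 23.3 (7.99 to 65.6) lay beyond 2-fold, but the 8 UMIs are under the 50 needed for a call. Without the 5% of barcodes with the highest doublet scores, corpus luminal cells numbered 59 and held 3 CLDN5 UMIs (47.7 CPM, 9.84 to 139). Within corpus, the endothelial-like level was 1.69 times the luminal one (0.372 to 6.30), so the 2 did not differ beyond counting error. Luminal cells held 57.1% of the CLDN5 UMIs of corpus and endothelial-like cells 28.6%. In caput the 2688 luminal cells held 40% and the 11 endothelial-like cells 28%. Of the 10 caput luminal UMIs, 8 lay in the DEFB129-led cluster, where CLDN8 was highest, 1 each in the DEFB119- and CST11-led clusters, and 0 in the other two. Endothelial markers were low in corpus luminal cells, with 10 of 21 detected and 28 UMIs in all (219 CPM, about the 286 CPM of caput luminal cells), and the other 11, PECAM1, CDH5 and KDR among them, were at 0. FLT4, one of the 21 markers, held 7 of the 28 UMIs, a level of 54.8 CPM, against 79.3 CPM in corpus endothelial-like cells. The part of endothelial RNA in the CLDN5 UMIs of corpus luminal cells was not tested. Of the 8 corpus luminal cells with CLDN5, 2 held an endothelial marker UMI, as did 22 of the 156 without CLDN5. The 8 cells were deeper, with a median of 1096.5 UMIs against 621.5 in the others, and 4 of the 8 also held CLDN8, as did 52 of the others. In corpus T or NK-like and macrophage-like cells CLDN5 was at 0 UMIs.

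In the epididymis most CLDN11 UMIs lay in fibroblast-like and long-gene cells, and the level was higher in the fibroblast-like cells. These held 59.0% of the CLDN11 UMIs of corpus and 27.7% of those of caput, and the more numerous long-gene cells held 37.2% (29 UMIs) and 49.6% (68 UMIs). Corpus fibroblast-like cells held 46 UMIs (38.7 CPM, 28.3 to 51.6) and caput fibroblast-like cells 38 UMIs (35.5 CPM, 25.1 to 48.7), and the ratio of corpus over caput was 1.09 (0.694 to 1.72). Both corpus fibroblast clusters carried it, at 36.3 and 41.6 CPM. A UMI was seen in 1.67% of corpus and 4.57% of caput fibroblast-like cells, against 0 of 827 corpus and 4 of 806 caput T or NK-like cells of about the same depth as the fibroblasts beside them. Long-gene cells had a lower level, 13.8 CPM in corpus and 12.2 CPM in caput, and corpus luminal cells had 0 UMIs. Endothelial-like cells held 1 UMI in corpus (26.4 CPM), 3 UMIs in 3 of 11 caput cells (107 CPM, 22.0 to 312) and 6 UMIs in 4 testis cells (516 CPM, 189 to 1122), 5 of those 6 in a single cell.

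The name of CLDN11 as a testis claudin did not show in its level. Over whole libraries it stood at 18.8 CPM in corpus, 10.4 CPM in caput and 0.885 CPM in testis, where 42 of the 47444342 UMIs of the kept cells were CLDN11. Apart from the endothelial-like cells, the testis classes ranged from 0 UMIs to 2.52 CPM in long-gene cells. The 55 fibroblast-like cells had 0 UMIs, and their exact interval reaches 30.1 CPM. Late spermatocyte-like cells had 0.443 CPM and round spermatid-like cells 0.498 CPM. A further 4 UMIs lay in 1 cluster of 115 cells that mixed types and was led by APOE, APOD and DCN. Its level was 7.05 CPM (1.92 to 18.0). No cluster carried the Sertoli markers that would mark the cells known for CLDN11 in the mouse. Of the 20 Sertoli markers 15 are features, and the whole testis library held 9 UMIs of SOX9, 1 of AMH, 37 of WT1 and 245 of FSHR, so CLDN11 in Sertoli cells could not be measured. In 4 of the other groupings the 4 endothelial-like cells joined the fibroblast-like cells of the testis, which then held those 6 CLDN11 UMIs (44.8 CPM).

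Summed over whole libraries, the claudins differed in another way than within luminal cells. CLDN8 stood at 26.8 CPM in corpus and 48.0 CPM in caput, a ratio of 0.558 (0.452 to 0.684), on the opposite side of 1 from the luminal ratio of 6.07, and luminal cells were 1.71% of corpus cells and 28.4% of caput cells. CLDN2 stood at 1.93 CPM in corpus and 24.9 CPM in caput (ratio 0.0775, 0.0332 to 0.155). The ratio of CLDN11 was 1.82 (1.36 to 2.41), and fibroblast-like cells were 27.5% of corpus cells and 7.62% of caput cells. CLDN5 had 14 UMIs in corpus and 25 in caput (ratio 1.79, 0.858 to 3.57). By the 2-fold rule 0 of the 4 were called higher in corpus, where 1.77% of 17760 genes were, and 1, CLDN2, higher in caput, where 7.02% were. Against testis, 3 of the 4 were called higher in caput, where 54.2% of all genes tested were, so that these calls say little about claudins: CLDN2 at a ratio of 591 (162 to 4903), CLDN8 with 634 UMIs in caput and 1 in testis (ratio 2279, 408 to 90153), and CLDN11 at 11.7 (8.24 to 17.0).

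The other claudins showed further patterns across the same classes. None of the 18 reached 50 UMIs on the higher side in the luminal comparison. CLDN4, a claudin of tight epithelia, had 31 UMIs in corpus luminal cells (243 CPM, 165 to 344) and 132 in caput luminal cells (35.5 CPM), a ratio of 6.84 (4.47 to 10.2), and 554 CPM in the caput clear or narrow-like cells. Its caput luminal clusters lay between 31.4 and 55.5 CPM, where those of CLDN8 lay between 18.5 and 297 CPM. CLDN7 stood at 172 CPM in corpus and 93.0 CPM in caput luminal cells (ratio 1.85, 1.15 to 2.85) and CLDN3 at 110 CPM and 91.6 CPM (interval of the ratio 0.647 to 2.03). These 3 were the other claudins that averaged 50 CPM or more, with a median log2 ratio of 0.92, against 0.09 over the 3725 such genes of all kinds. CLDN15 was seen with CLDN5 in endothelial-like cells of the epididymis, with 2 of its 4 UMIs in corpus and 3 of 5 in caput. It had 0 in luminal cells of both. In testis it had 58 UMIs, with 0 in the endothelial-like cells. CLDN34, with 30 UMIs in caput and 596 in testis, was the single claudin called higher in testis, where 18.9% of all genes tested were, and 374 of its testis UMIs lay in round spermatid-like cells (26.6 CPM). CLDN17, a close relative of CLDN8, had 6, 8 and 1 UMIs in corpus, caput and testis.

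**Figure D4:**
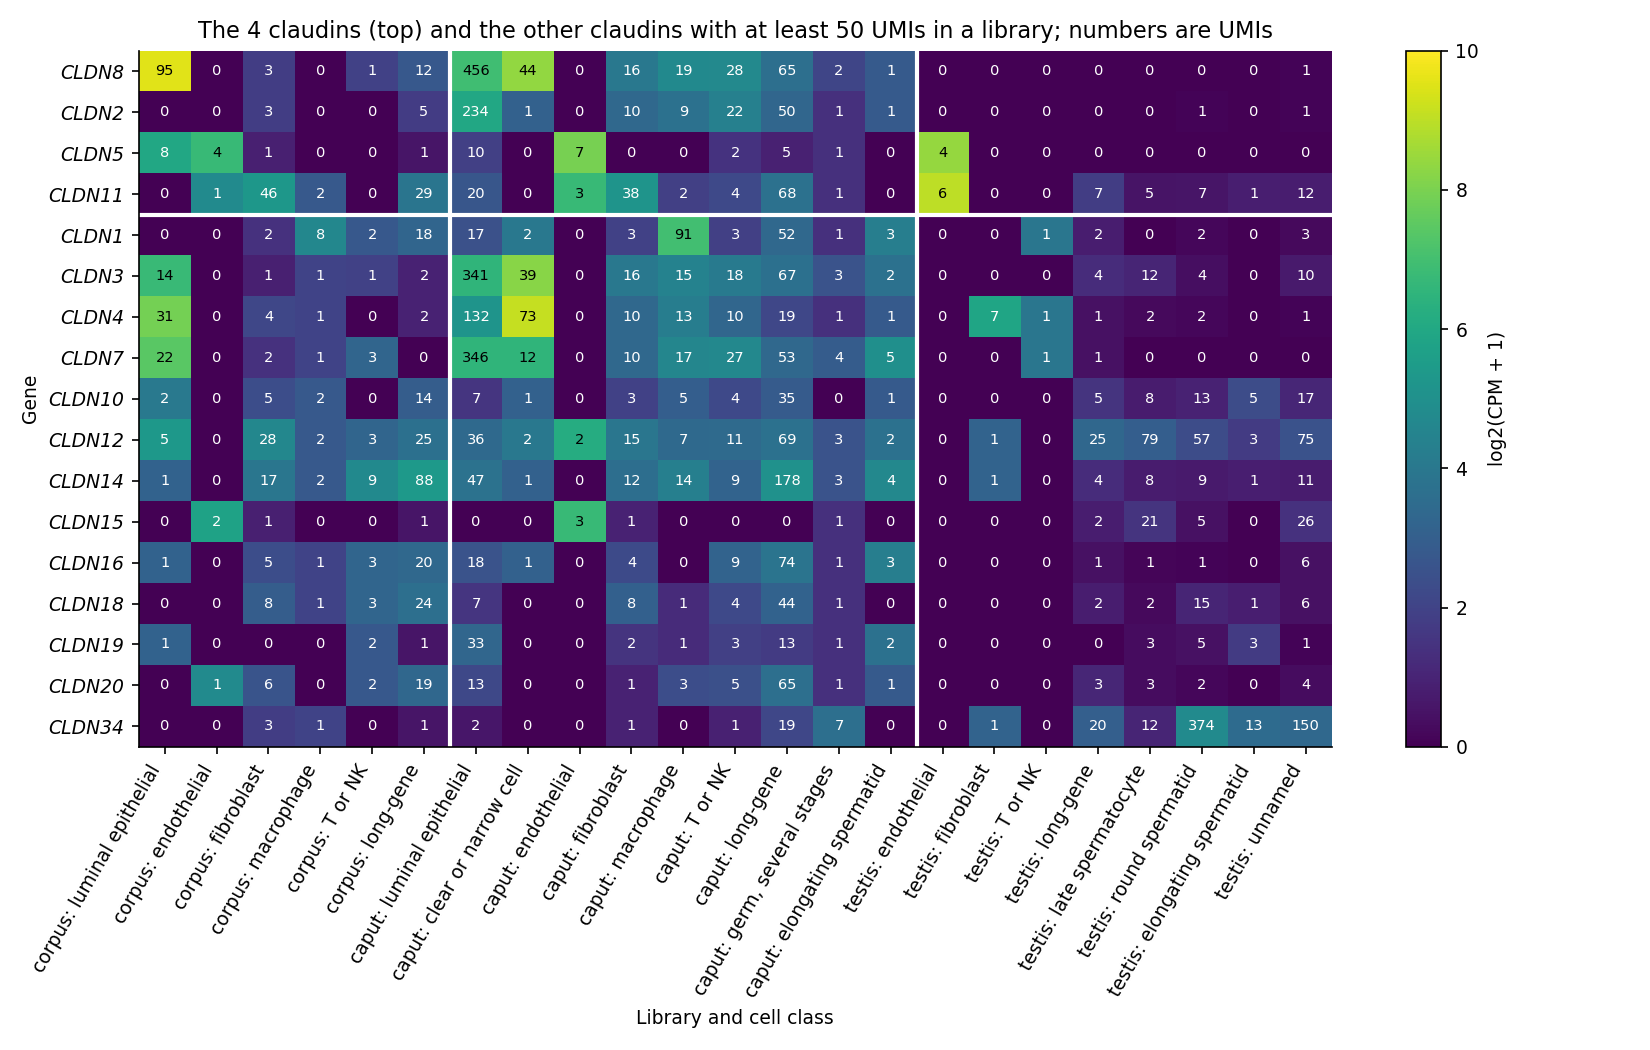
Colour gives log2(CPM + 1) of the 4 claudins (top) and of the 13 other claudins with at least 50 UMIs in a library, in each class of corpus, caput and testis from left to right; the number in each cell is its UMI count. CLDN3, CLDN4 and CLDN7 share the epithelial columns with CLDN8, and CLDN34 stands in the round spermatid column with 374 UMIs.

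Other junction genes were compared between the same luminal cells. Of 34 measured tight junction genes, which make scaffolds, polarity complexes and other strand proteins, 17 reached 50 UMIs on the higher side, and 0 were called in either direction, where 2.9% of all 6560 genes were, so that a count of 0 is near that background. AMOT, an angiomotin that binds the junctional scaffold, stood at 407 CPM in corpus and 232 CPM in caput (ratio 1.75, 1.30 to 2.32), TJP1 (ZO-1, a scaffold of the strands) at 47.0 and 70.1 CPM (ratio 0.669, 0.243 to 1.48), and PARD3, a polarity protein, at 149 CPM in each. The 10 that averaged 50 CPM or more had a median log2 ratio of -0.11. Of 20 measured genes of adherens and other junctions 8 reached 50 UMIs and 0 were called, again near the background, and EPCAM stood at 736 CPM in corpus and 416 CPM in caput (ratio 1.77, 1.42 to 2.18). Over the whole libraries, where 7.02% of all genes were called higher in caput, 2 of 8 other claudins (CLDN3 and CLDN7), 4 of 33 tight junction genes (AMOT, CRB3, PARD6A and YBX3) and 2 of 17 genes of adherens and other junctions (EPCAM and DSC2) were. Higher in corpus were 0 genes of these lists, against 1.77% of all genes.

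**Figure D5:**
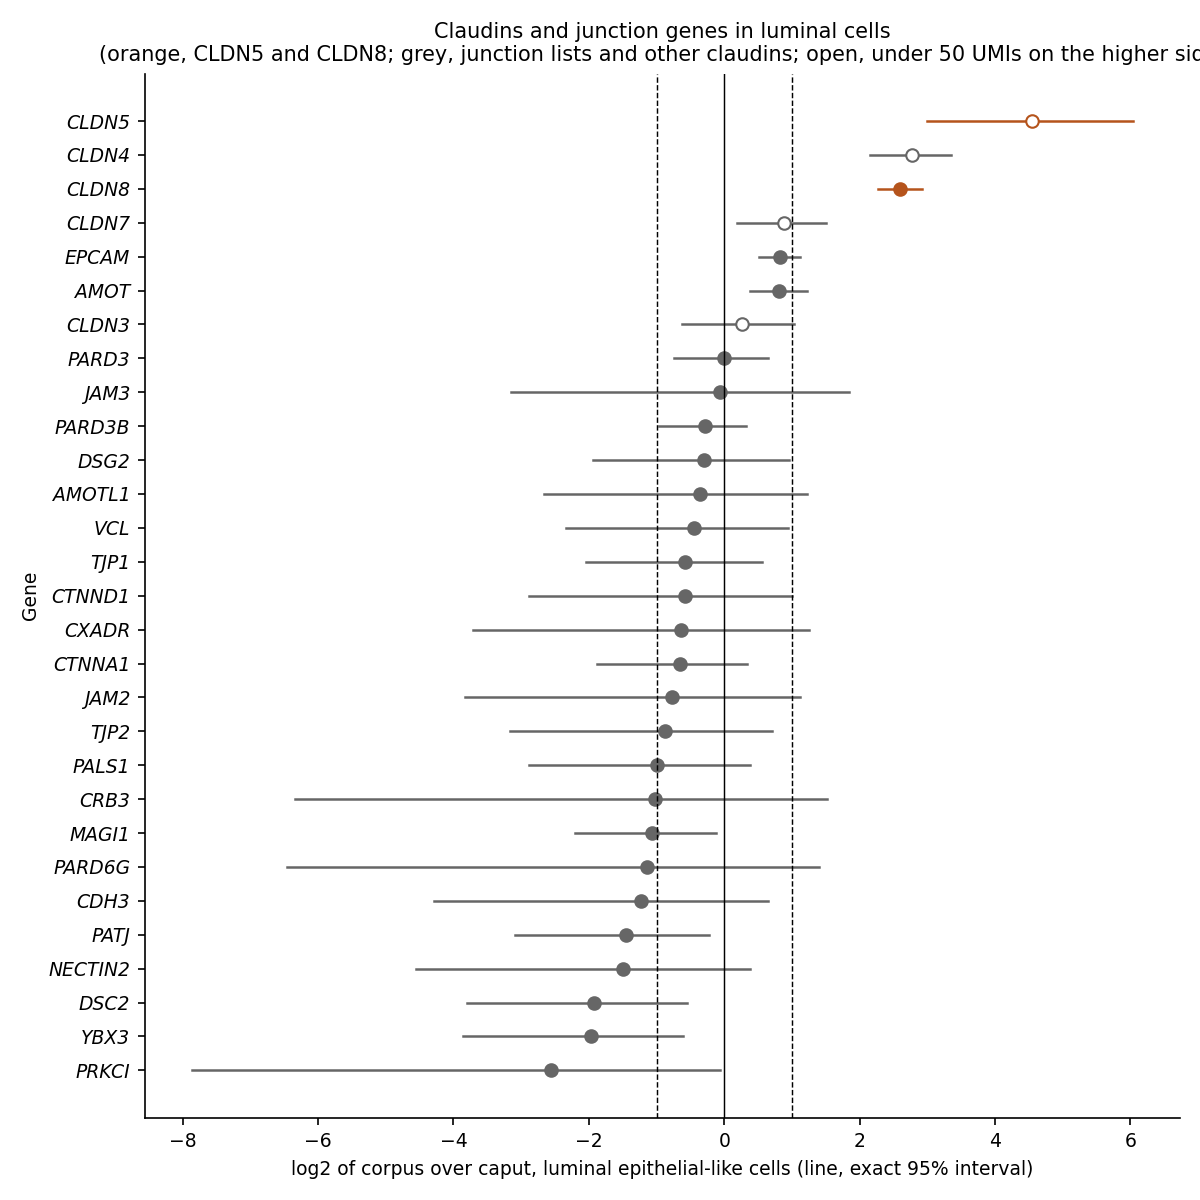
Log2 of the corpus over the caput level in luminal cells with exact 95% intervals, for CLDN5 and CLDN8 (orange) and for junction genes and other claudins (grey). Dashed lines mark 2-fold and open points genes under 50 UMIs on the higher side; CLDN2 and MARVELD2, at 0 UMIs in corpus luminal cells, are not drawn. Among the filled points CLDN8 (ratio 6.07) is the one whose interval lies wholly beyond a dashed line.

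The genes most like each claudin were taken as those with the highest Pearson correlation of log2(CPM + 10) over 34 clusters of at least 50 cells, among 13832 genes. The clusters share libraries and depth, so these values only describe. The caput and testis endothelial-like cells, 11 and 4 in number, fall under that size and are left out. The corpus luminal cluster is among the 34, so a level there like that of the claudin follows in part from the choice. For CLDN8 they were WFDC2, a secreted protein of the epididymis (0.98), SPINT1 (0.95), CAPS (0.94), CLDN3 (0.93) and ELF3 (0.92), of which WFDC2 and ELF3 had served to name luminal cells. For CLDN2 they were OPTC (0.96), ADGRG2, an adhesion receptor of the proximal duct (0.95), METTL7A (0.94), GPD1 (0.94) and CRYBA4 (0.93). Of these, 4 were at 0 UMIs in corpus luminal cells, where CLDN2 was too, and OPTC stood at 15.7 CPM there and at 126 CPM in caput luminal cells. For CLDN5 they were METTL1 (0.84), FLT4, a receptor of lymphatic endothelium and one of the endothelial markers (0.84), RFLNB (0.83), PRRT1B (0.75) and CLIC2 (0.74). FLT4 stood at 79.3 CPM in corpus and 214 CPM in caput endothelial-like cells and, like CLDN5, was also seen in corpus luminal cells, at 54.8 CPM. For CLDN11 they were EDNRB, an endothelin receptor (0.83), GNG11 (0.80), PI15 (0.79), RARG (0.79) and ZNF662 (0.78). These lists were unstable: with Spearman correlation 0 of 5 names stayed for CLDN2 and CLDN5 and 1 of 5 for CLDN8 and CLDN11.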

How the data were processed

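The deposited values are counts: whole-number UMI counts per feature and barcode, not normalized, that PISA 0.12 wrote per the file headers. Cell Ranger 2.1.1 is named by the submitters' processing notes, with no role. For the aligner and the build, neither is given in the sources used here. A feature absent from a file was taken as 0.

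Cells with at least 200 genes were kept. Doublet calling marked 2, 1 and 25 barcodes in corpus, caput and testis, too few to have worked, so doublets remain. Barcode names are running counters, so the 8957 (corpus and caput), 7339 (corpus and testis) and 7441 (caput and testis) names in common tell nothing of shared cells. Each library was clustered alone (log counts per 10000, 2000 variable genes without 76 junction genes, 30 components, 15 neighbours, Leiden resolution 1, seed 0; Python 3.11.15, scikit-learn 1.9.0, igraph 0.11.9, leidenalg 0.10.2). Clusters were named from markers without claudins, and those of at least 50 cells that mixed types were clustered again, by thresholds set after the clusters were seen.

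Counts were summed per class and divided by its UMIs. Levels carry exact Poisson, shares exact Clopper-Pearson and ratios exact conditional binomial 95% intervals (scipy 1.17.1). Against 0 UMIs a bound used 3 counts over the class and the level of the other side without its counting error. Such a bound is not an exact 95% limit. No p-value was computed, for want of replicates. The call rule was tested on simulated data.

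The claudins and gene lists were chosen with earlier results of these data known. Named genes were the 4 claudins, the 5 genes most like each, junction genes called between luminal cells and other claudins with at least 50 UMIs in a library; TJP1, AMOT, PARD3, EPCAM, CLDN17 and the genes called over whole libraries were named after their values were seen. Alternatives were the cell filters, clustering, variable genes, thinning, call rule and likeness measure.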

Additional observations from a re-analysis of the deposited data

Results flagged for a closer look

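CLDN8 differed between corpus and caput in opposite directions by cell class. The ratio of corpus over caput was 6.07 in luminal epithelial-like cells, and 0.169 (0.0316 to 0.590) in fibroblast-like cells and 0.113 (0.00277 to 0.685) in T or NK-like cells. The difference between the classes was not tested, since there is 1 library of each tissue. The fibroblast value rests on 3 UMIs in corpus and 16 in caput and the T or NK value on 1 and 28, and in both classes the luminal naming genes were also at a far smaller share of their luminal level in corpus (medians of 0.71% and 0.70%) than in caput (17.5% and 19.6%).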

How the results depend on the processing

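No paired analysis was possible because each group holds 1 library. The luminal bound for CLDN2, 2.68-fold lower in corpus against the floor of 3 counts, became 1.73 with at least 500 genes per cell. It became 1.31 without the 5% highest doublet scores. In both, fewer corpus UMIs remained and CLDN2 stayed at 0 UMIs in corpus luminal cells. These cells numbered 164 in the main grouping, 73 with at least 500 genes and 59 without the highest doublet scores. The luminal ratio of CLDN8 was 7.62 with at least 500 genes and 4.75 (2.91 to 8.13) after thinning the deeper side; the cause was not tested. In an alternative chosen after seeing the data, each caput luminal cluster was left out in turn. The CLDN2 bound was then 3.58 without the DEFB119-led and 2.28 without the CST11-led cluster, and the CLDN8 ratio 8.80 without the DEFB129-led one. CLDN11 in corpus fibroblast-like cells was 26.8 CPM with at least 500 genes, and in testis fibroblast-like cells 44.8 CPM, in place of 0, with junction genes kept in, at resolutions 0.5 and 2, and without the 5% highest doublet scores. Luminal calls higher in corpus numbered 72, and 45 without the highest doublet scores, 209 with a minimum of 10 UMIs and 44 at 4-fold. Those higher in caput numbered 118, and 70 without the highest doublet scores, 47 after thinning and 52 at 4-fold. Over whole libraries, 1247 calls higher in caput became 433 with at least 500 genes and 403 at 4-fold, and 314 higher in corpus became 49 at 4-fold. Of the other main values, 84 stayed within their interval or within 1.5 times. Over the 5 other groupings of caput luminal cells, the CLDN2 share of both claudins ranged from at most 11.5% in the lowest cluster to at least 71.7% in the highest. With at least 500 genes per cell no corpus endothelial class was left, so CLDN5 could not be compared there. The testis endothelial class was absent with junction genes kept in, at resolutions 0.5 and 2, and without the 5% highest doublet scores. Depth limits CLDN5 in every library and CLDN2 in corpus.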

Other observations

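CLDN1, a claudin of basal epithelial cells and of skin, had its highest class levels in macrophage-like cells. Corpus macrophage-like cells held 8 of 30 UMIs (23.8 CPM) and caput macrophage-like cells 91 of 172 (125 CPM), against 0 UMIs in corpus luminal cells and 17 (4.57 CPM) in caput luminal cells. In the larger of the 2 caput macrophage clusters 49 of 278 cells held CLDN1, with up to 6 UMIs in a cell (152 CPM, 119 to 190). Those 49 cells were deeper, with a median of 1796 UMIs against 1374 in the others, and had a median of 26 macrophage marker UMIs against 20. The 11 measured basal cell markers summed to 7 UMIs (71.0 CPM) in them and 130 CPM in the others. In the smaller cluster 16 of 189 cells held CLDN1 (72.3 CPM, 42.9 to 114), and the basal markers summed to 6 UMIs (229 CPM) in them and 207 CPM in the others. This gene was singled out after its values were seen.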
